A study of Mus musculus with 4 samples.

Results

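The Hox genes are described here as a set chosen by name alone, the names being Hoxa, Hoxb, Hoxc or Hoxd followed by a number. No expression level entered the choice. The set described holds 38 genes, which filled 39 of the 54532 rows of the table, because Hoxd4 was listed under 2 gene identifiers. They fell into 4 clusters, with 10 genes in HoxA on chromosome 6, 10 in HoxB on chromosome 11, 9 in HoxC on chromosome 15 and 9 in HoxD on chromosome 2 (GRCm38).

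Hox genes encode transcription factors that bind DNA through a homeodomain, and their paralog number, which runs along each cluster, mirrors the position along the body axis at which each gene starts to be used in the embryo. Low numbers are active towards the head and hindbrain, middle numbers along the trunk, and the highest numbers towards the tail and the far ends of the limbs. Mesenchymal cells keep a memory of this position in culture, held in place largely by Polycomb repression and Trithorax activation, and Hox proteins reach their DNA sites together with the TALE cofactors Pbx and Meis. DNA methyltransferase 1 (DNMT1) copies methylation at CG dinucleotides when DNA is replicated.

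The cells were C3H10T1/2, an established mouse line from embryos of the C3H strain that serves as a model of mesenchymal stem cells (MSCs). All 4 groups were transfected for 48 h, either with a control siRNA (control and OB) or with siRNA against DNMT1 (siDNMT1 and siDNMT1_OB). The OB and siDNMT1_OB cells were then kept for 3 days in osteoblast (OB) induction medium with L-ascorbic acid (50 µM), β-glycerophosphate (10 mM) and dexamethasone, and the control and siDNMT1 cells were left untreated. The labels name no uninduced library held for the same 3 days. Effects of the medium and of time in culture therefore cannot be told apart in OB against control or in siDNMT1_OB against siDNMT1. Each group held 1 library, so no difference below has a replicate check, no p-value is given, and every 95% interval covers counting error only. A single cell line is 1 model of such cells, and in bulk RNA fewer cells of a kind and less RNA per cell cannot be told apart.

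The total counts lay between 22296046 (OB) and 27367792 (control) per library. Dnmt1, read first as a check of the labels, had 7195 reads in control, 3375 with siDNMT1, 1931 with OB and 2492 with siDNMT1_OB. The log2 fold change was −1.01 for siDNMT1 against control and 0.13 for siDNMT1_OB against OB, so the knockdown was not visible in the library labelled siDNMT1_OB. Below, siDNMT1_OB is only the label of that library. All 12 stromal markers listed were above 3 counts, with Pdgfra higher in OB against control (a log2 fold change of 2.47) and in siDNMT1_OB against siDNMT1 (1.56) and Thy1 higher in the latter (1.22). Of 11 markers of other cell types, 4 were above 3 counts in some library (Tubb3 with 44 to 360, Cd68 with 47 to 62, Alb with 3 to 51 and Pecam1 with 3 to 8), their list summed to between 5.66 and 18.7 CPM, and Epcam, Krt18, Sox10 and Myod1 had no count. Tubb3 was higher in siDNMT1_OB against OB (1.24) and lower in OB against control and in siDNMT1_OB against siDNMT1 (−1.56). Of 10 osteoblast markers, 7 were above 3 counts, with Phex higher and Spp1 and Dmp1 lower in OB against control, Spp1 and Phex lower in siDNMT1 against control, and Dmp1 higher and Phex lower in siDNMT1_OB against OB, whereas Alpl, the early osteoblast phosphatase, had at most 2 counts in any library. Of 7 adipocyte markers, 4 were above 3 counts. Fabp4, Lpl and Cebpa were higher in OB against control. Cebpa and Lpl were higher in siDNMT1 against control, and Fabp4 in siDNMT1_OB against siDNMT1. Lpl had 10, 25, 47 and 29 counts in control, siDNMT1, OB and siDNMT1_OB, or 0.369, 0.976, 2.08 and 1.08 CPM. Lpl thus reached the mean of 1 CPM used as the filter only through OB, and neither Lpl call is read as a result. For the 12 listed cell cycle genes the median log2 fold change was −0.23 in siDNMT1 against control, 0.99 in siDNMT1_OB against OB, −2.27 in OB against control and −1.13 in siDNMT1_OB against siDNMT1. The part of these shifts in the Hox values was not tested.

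In these cells Hox expression was a matter of the HoxA cluster. The 10 HoxA genes held 3213 reads in control, 3209 with siDNMT1, 3061 with OB and 3270 with siDNMT1_OB. The HoxB genes together held 12, 5, 3 and 5 counts in the same order, the HoxC genes 1, 4, 4 and 4, and the HoxD genes none. In CPM (counts relative to the total of the library, scaled between libraries), HoxA stood at 118, 125, 135 and 122. Within HoxA, Hoxa2, Hoxa3, Hoxa4, Hoxa5, Hoxa6, Hoxa7, Hoxa9 and Hoxa10 reached a mean of at least 1 CPM over the 4 libraries, and these 8 are the Hox genes for which fold changes are given.

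**Figure D1:**
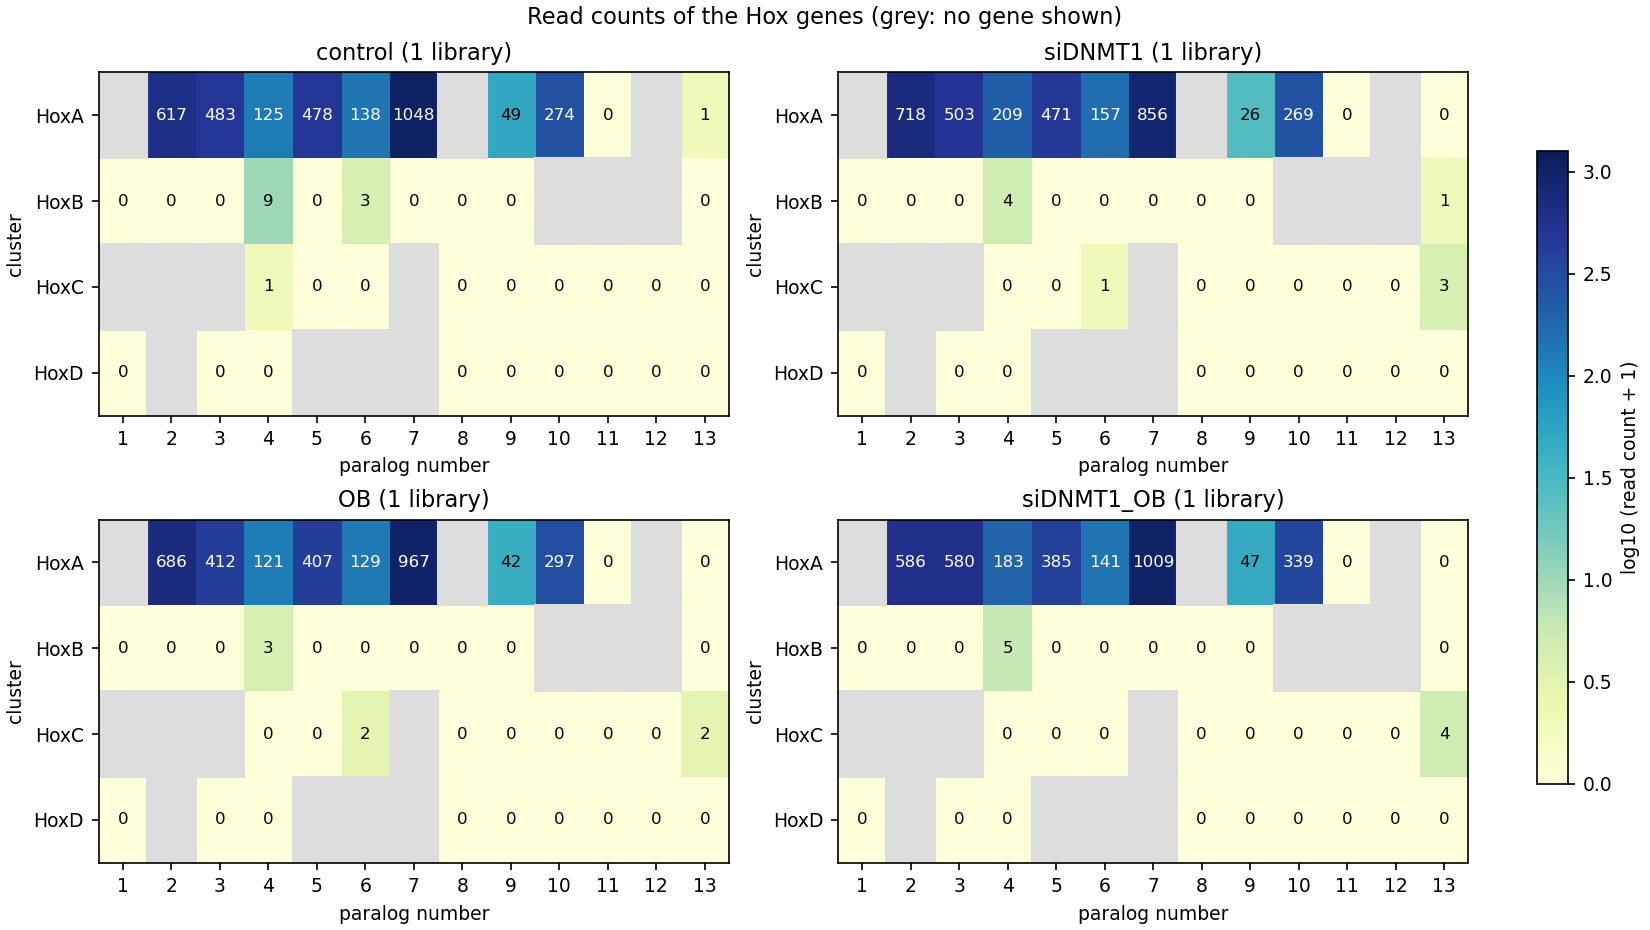
Read counts of the 38 Hox genes in the 4 libraries, by cluster (vertical axis) and paralog number (horizontal axis), coloured by log10 of the count plus 1, with grey where no gene is shown. The HoxA row holds counts from Hoxa2 to Hoxa10, and outside it no count exceeds 9.

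The other 30 genes lay under that level, and 23 of them had no count in any library. A count of 3 in 1 library, used as the floor of detection, equals 0.111, 0.117, 0.133 and 0.112 CPM in control, siDNMT1, OB and siDNMT1_OB. It is the one-sided 95% limit on the mean that a count of 0 allows, for counting error only. Hoxb4, a paralog of Hoxa4 known from blood stem cells, had 9 reads in control, 4 with siDNMT1, 3 with OB and 5 with siDNMT1_OB. Hoxc13, known from hair and nail, had 0, 3, 2 and 4. These were the only genes of the 30 above the floor in any library. Hoxb6 had 3 counts in control only, Hoxc6 had 1 in siDNMT1 and 2 in OB, Hoxa13 and Hoxc4 had 1 each in control, and Hoxb13 had 1 in siDNMT1.

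Summed, the 30 genes held 14, 9, 7 and 9 counts in control, siDNMT1, OB and siDNMT1_OB. This is 0.516 CPM (95% Poisson interval 0.282 to 0.866) in control and 0.351 (0.161 to 0.667) in siDNMT1, and 0.310 in OB and 0.336 in siDNMT1_OB. These intervals overlapped, and a gain of reads from these genes in siDNMT1 was not detectable at this depth.

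By paralog number, HoxA supplied most reads of each group from 2 to 10 that it has a member in. Group 4 is the only one of these in which another cluster passed the floor, through Hoxb4. Hoxb1 and Hoxd1 had no count, groups 8, 11 and 12 had none at all, and HoxA has no gene in groups 8 and 12. Group 13, the most posterior, held 1, 4, 2 and 4 counts in control, siDNMT1, OB and siDNMT1_OB, from Hoxa13 in control and from Hoxc13 in the others, with 1 read of Hoxb13.

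The HoxA genes lie head to tail on the minus strand of chromosome 6, with Hoxa2 near the low-coordinate end (52162417 to 52164831) and Hoxa13 at the other (52257694 to 52260880). The level ended between Hoxa10 (52231197 to 52240854) and Hoxa11 (52242106 to 52245810), which are separated by 1251 bases. Hoxa10 had 274, 269, 297 and 339 counts in control, siDNMT1, OB and siDNMT1_OB, and Hoxa11, a gene of the forearm and lower leg, had 0 in all 4. In TPM (CPM divided by the gene length in the table and rescaled to the same total in each library), Hoxa10 was at least 63.9-fold higher than Hoxa11 in control, and at least 62.7-fold, 69.2-fold and 79.0-fold higher in siDNMT1, OB and siDNMT1_OB, each computed against 3 counts of Hoxa11 per library.

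The step was not limited to the coding genes. Of the 15 rows of the table from Hoxa2 to Hoxa10 (78.4 kb), 13 were above the floor in at least 1 library. The 18 rows from Hoxa11 to the end of Evx1, a neighbouring homeobox gene (76.3 kb), held 2 counts in all 4 libraries together. Among them the long noncoding RNAs Hoxa11os and Hottip, transcribed from the posterior end of the cluster, had no count. Many of the 18 rows are short RNA entries of 59 to 378 bases. Some of these lie within the spans of Hoxa11os or Hottip, so the 18 rows are not separate checks of the step. The edge lay at the same pair of genes in all 4 libraries.

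**Figure D2:**
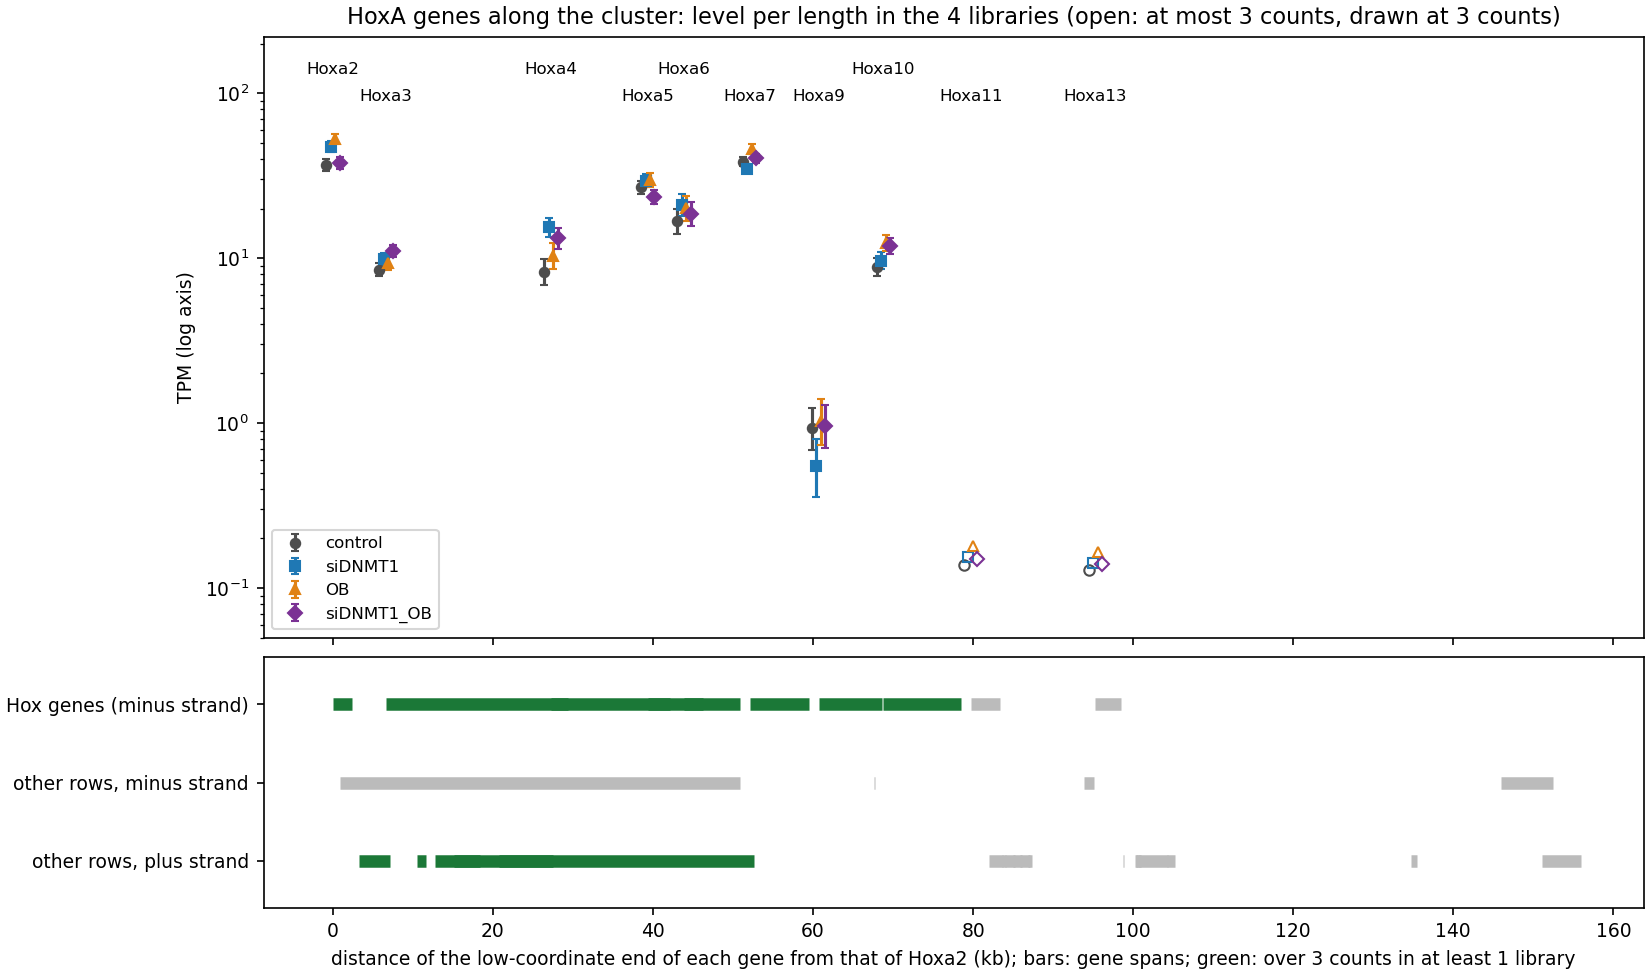
Upper panel, TPM (log axis) of the 10 HoxA genes in the 4 libraries with 95% counting intervals, placed at the low-coordinate end of each gene as distance in kb from that of Hoxa2, with open symbols where a library held at most 3 counts and was drawn at 3. Lower panel, gene spans by strand, green where at least 1 library was above 3 counts, which end with Hoxa10; the spans of Hoxa4, Hoxa5 and Hoxa6 lie within that of Hoxa3.

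The promoter windows on both sides of this edge are shown, since the expressed stretch of the cluster ends there. They are 300 bases long, lie mostly upstream of an annotated start (RefSeq, GRCm38.p6), are written 5′ to 3′ on the minus strand, and have CG in capitals, the dinucleotide that DNMT1 acts on. Hoxa10 has 2 annotated starts, with windows at chr6:52240805-52241104 and chr6:52234890-52235189, and the Hoxa11 window is chr6:52245761-52246060.
Hoxa10, upstream start: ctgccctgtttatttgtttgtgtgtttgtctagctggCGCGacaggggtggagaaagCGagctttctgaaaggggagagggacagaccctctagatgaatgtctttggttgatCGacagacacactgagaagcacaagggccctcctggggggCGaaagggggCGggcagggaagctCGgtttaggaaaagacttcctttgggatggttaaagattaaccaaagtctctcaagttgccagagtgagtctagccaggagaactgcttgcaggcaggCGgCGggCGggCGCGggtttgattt
Hoxa10, downstream start: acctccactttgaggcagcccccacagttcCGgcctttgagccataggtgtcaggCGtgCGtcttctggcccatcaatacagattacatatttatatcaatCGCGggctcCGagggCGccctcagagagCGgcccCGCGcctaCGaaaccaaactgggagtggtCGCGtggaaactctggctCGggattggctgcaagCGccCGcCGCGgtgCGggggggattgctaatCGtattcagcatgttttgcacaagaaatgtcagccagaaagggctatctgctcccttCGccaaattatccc
Hoxa11: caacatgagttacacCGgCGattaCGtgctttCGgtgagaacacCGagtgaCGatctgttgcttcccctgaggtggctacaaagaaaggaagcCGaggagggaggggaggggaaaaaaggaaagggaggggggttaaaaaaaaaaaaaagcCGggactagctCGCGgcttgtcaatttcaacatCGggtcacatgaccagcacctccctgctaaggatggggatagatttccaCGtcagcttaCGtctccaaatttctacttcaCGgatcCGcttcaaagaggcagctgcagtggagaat

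The Hoxa10 windows hold 12 and 21 CG and the Hoxa11 window 15. At least as many CG are found in 39.6%, 24.8% and 34.6% of all 32851 windows of this length. The count of CG in the Hoxa11 window thus lay between those of the Hoxa10 windows.

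RefSeq windows could be matched for 22 of the 38 genes, 24 windows in all. Their median was 14.5 CG, against 7 over all windows. The 8 windows of 7 of the HoxA genes tested had a median of 16 (4 to 29) and the 16 windows of 15 Hox genes under the mean of 1 CPM one of 14.5 (4 to 45), so the ranges overlapped widely. The extremes on both sides were held by genes of low level: Hoxa13, with 1 read, had 45 CG, and Hoxa9, the lowest of the genes tested, had 4, as did Hoxd4 and 1 window of Hoxd11. Methylation itself is not a quantity of this table.

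**Figure D3:**
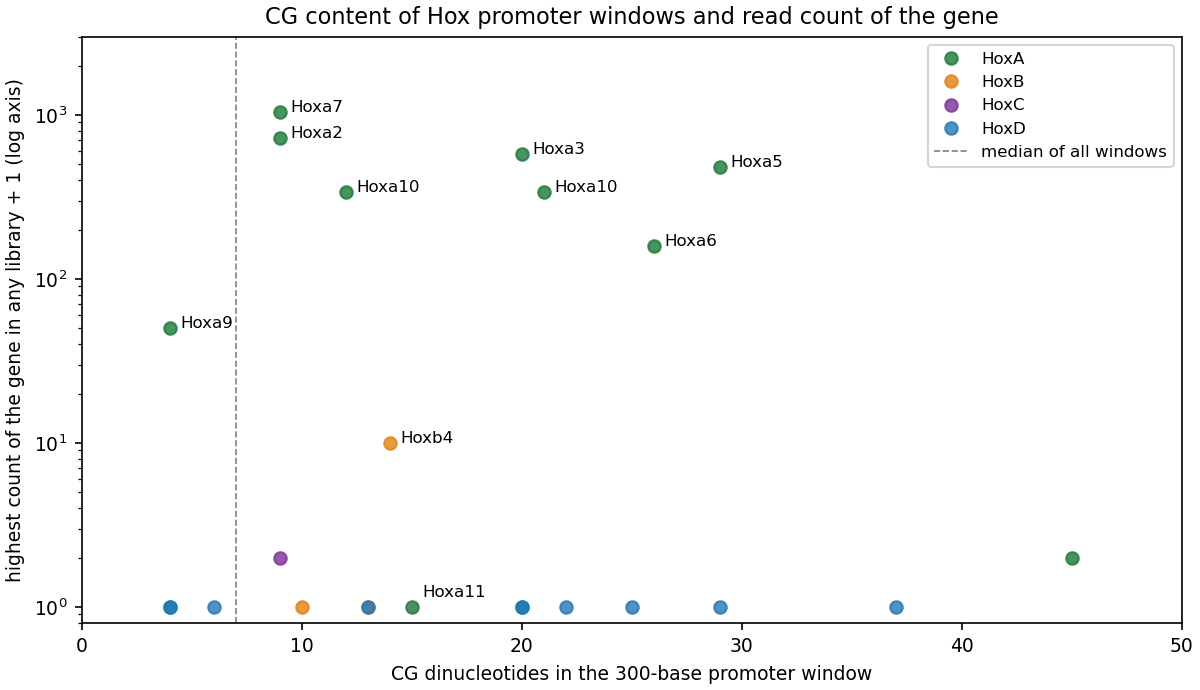
CG dinucleotides in each of the 24 matched Hox promoter windows (horizontal axis) against the highest read count of the gene in any library plus 1 (log axis), coloured by cluster, with a dashed line at the median of 7 of all windows. The Hox genes tested, apart from Hoxa9, span 9 to 29 CG, and genes at 0 span 4 to 37.

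Along the expressed stretch, levels did not follow paralog number. In control, Hoxa7 stood at 38.5 TPM and Hoxa2 at 36.8, with overlapping intervals. Hoxa5 followed at 26.9 and Hoxa6 at 16.7, both apart from their neighbours in the order. Hoxa10 at 8.86, Hoxa3 at 8.49 and Hoxa4 at 8.29 could not be ordered within counting error. Hoxa9, between the well expressed Hoxa7 and Hoxa10 on the chromosome, was lowest at 0.929.

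Much of the order was kept in the other libraries. Hoxa2 and Hoxa7 led in each library, with Hoxa2 first in siDNMT1 (47.5 against 34.9 TPM) and in OB (52.8 against 46.0, intervals overlapping) and Hoxa7 first in siDNMT1_OB (40.2 against 37.9, intervals overlapping). Hoxa5 and Hoxa6 came next, and Hoxa9 last, in all 4. Places changed among Hoxa3, Hoxa4 and Hoxa10, where Hoxa4 stood above the others in siDNMT1, at 15.4 TPM against 9.82 for Hoxa3 and 9.66 for Hoxa10, with intervals that did not touch.

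Gene length enters these levels. Without dividing by length, Hoxa7 had the highest count in all 4 libraries. Exons shared with other genes on either strand are a further limit, since the library kit did not mark strand and genes of one strand cannot be told apart there in any case. Other annotated genes overlap 27.1% of the exon bases of Hoxa3, 20.4% of Hoxa7, 16.0% of Hoxa4, 15.0% of Hoxa2 and 1.52% of Hoxa9, and none of Hoxa5, Hoxa6 or Hoxa10. All shared bases of Hoxa4 and Hoxa7 are with genes of the opposite strand, all those of Hoxa2 and Hoxa9 with genes of the same strand, and those of Hoxa3 with both. With the whole count divided by the unshared exon length, the first place was the same in each library. Reads in unshared exons alone are not given, so this does not remove reads from shared bases.

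The question the design puts to these genes is whether DNMT1 siRNA, OB induction (with its time in culture) or both moved the positional code. A gene was called past the fold where the log2 fold change reached 1 in size with a counting interval that excluded 0. None of the 8 HoxA genes was past the fold in any of the 4 comparisons. Among all 13233 genes tested, 1.87% were higher and 1.33% lower in siDNMT1 against control, 2.35% and 1.36% in siDNMT1_OB against OB, 10.6% and 7.1% in OB against control, and 6.82% and 2.71% in siDNMT1_OB against siDNMT1. With only 8 genes, a count of 0 is near the background in each comparison and is not a result about the HoxA genes.

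The whole interval lay between −1 and 1 for all 8 HoxA genes in OB against control, where this held for 72.0% of all genes tested and for 66.5% of the 6783 genes within the range of mean CPM of the 8. It held for all 8 in siDNMT1_OB against OB (88.1% of all tested and 86.9% of those in the range), for 7 in siDNMT1_OB against siDNMT1 (80.7% and 76.9%) and for 6 in siDNMT1 against control (87.6% and 86.1%). With 8 genes these counts are near those shares. Across the 4 libraries, the highest CPM of a HoxA gene was between 1.20 and 1.83 times its lowest, with a median of 1.29. The median over all genes tested was 1.47, and 24.0% of them spanned at least 2-fold. None of the 8 did, a count that is also near its background.

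The median log2 fold change of the 8 genes was 0.10 in siDNMT1 against control, −0.10 in siDNMT1_OB against OB, 0.15 in OB against control and −0.04 in siDNMT1_OB against siDNMT1, beside medians of at most 0.01 in size over all genes tested. The summed HoxA counts gave log2 fold changes of 0.08 (0.01 to 0.15), −0.15 (−0.22 to −0.08), 0.19 (0.12 to 0.26) and −0.04 (−0.11 to 0.04) in the same order. In the first and last of these, Hoxa7, the most abundant member, went the other way, and without it they were larger in size, at 0.20 and −0.12. The counting intervals of 4, 5, 3 and 5 of the 8 genes excluded 0, against 52.8%, 51.2%, 74.4% and 66.3% of all genes tested.

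**Figure D4:**
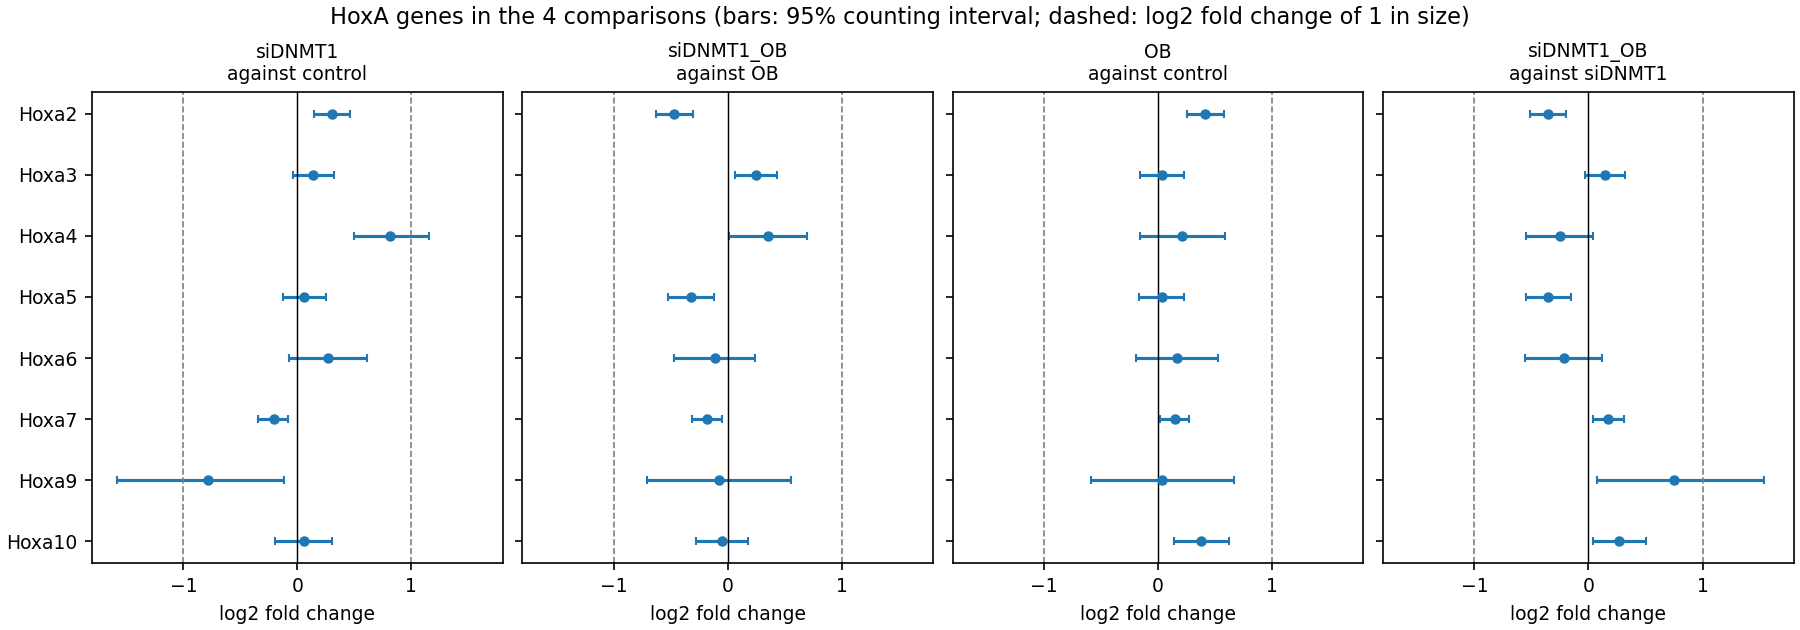
Log2 fold change of the 8 HoxA genes (rows) in the 4 comparisons (panels), with 95% counting intervals as bars, a solid line at 0 and dashed lines at 1 in size. No point lies past a dashed line, and the intervals of Hoxa4 and Hoxa9 in siDNMT1 against control and of Hoxa9 in siDNMT1_OB against siDNMT1 cross one.

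Of the anterior genes, Hoxa2, which patterns the second branchial arch and opposes bone formation there, had 617, 718, 686 and 586 counts in control, siDNMT1, OB and siDNMT1_OB, or 36.8, 47.5, 52.8 and 37.9 TPM. In TPM the libraries labelled siDNMT1 and OB were above control, and that labelled siDNMT1_OB was near it. Its log2 fold change was 0.30 (0.14 to 0.46) in siDNMT1 against control and −0.47 (−0.63 to −0.31) in siDNMT1_OB against OB. The difference between these 2 values, −0.77 (−0.99 to −0.55), was the largest in size among the 8 genes, although Dnmt1 itself was not lower in the library labelled siDNMT1_OB. OB against control gave 0.41 (0.26 to 0.57), the highest of the 8 in that comparison.

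The Hoxa2 promoter window (chr6:52164782-52165081, minus strand, RefSeq, GRCm38.p6) is shown for the letters that Hox proteins bind with their cofactors. It was the only matched Hox window with both the Hox-Pbx letters TGATTNAT (here read on the opposite strand) and the Meis letters TGACAG, which are in capitals.
Hoxa2: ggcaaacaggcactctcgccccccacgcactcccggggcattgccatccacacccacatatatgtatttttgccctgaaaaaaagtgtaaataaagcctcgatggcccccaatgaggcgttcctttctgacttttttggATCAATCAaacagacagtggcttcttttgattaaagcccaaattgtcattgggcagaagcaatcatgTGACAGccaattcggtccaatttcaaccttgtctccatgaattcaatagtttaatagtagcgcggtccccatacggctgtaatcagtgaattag

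The first match covers positions 140 to 147 of the window and the second positions 207 to 212, counted from 1 at the 5′ end. On either strand, TGATTNAT occurs in 3.22% of all windows and in 2 of the 24 Hox windows (Hoxa2 and one of Hoxd11), and TGACAG in 19.2% of all windows and in 2 of the 24 (Hoxa2 and Hoxa3). A match describes letters, not binding. A retinoic acid element (AGGTCA repeated after 5 bases) and a glucocorticoid element (AGAACA and TGTTCT spaced by 3 bases), searched because of retinoid control of Hox genes and the dexamethasone in the medium, were in none of the 24 windows and in 0.00913% of all windows each.

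Hoxa3, needed for the thymus and neck cartilage, had 483 reads in control, 503 with siDNMT1, 412 with OB and 580 with siDNMT1_OB. The library labelled siDNMT1_OB was the highest, and its log2 fold change against OB was 0.25 (0.07 to 0.44). The other 3 comparisons had intervals that included 0.

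Of the genes of the neck and trunk, Hoxa4 had the largest positive value in siDNMT1 against control. Hoxa4 had 125 reads in control, 209 with siDNMT1, 121 with OB and 183 with siDNMT1_OB, so the libraries labelled siDNMT1 and siDNMT1_OB were above those labelled control and OB. The log2 fold change was 0.81 (0.50 to 1.16) in siDNMT1 against control and 0.35 (0.01 to 0.70) in siDNMT1_OB against OB, with a difference of −0.46 (−0.92 to −0.003). It was below the size threshold in both, and its exons share bases with Gm29430, an antisense transcript with 19, 26, 21 and 25 counts in the same order.

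Hoxa5, a regulator of the lung and the cervical to thoracic skeleton, had 478, 471, 407 and 385 counts in control, siDNMT1, OB and siDNMT1_OB. In CPM the first 3 libraries lay between 17.6 and 18.4, and siDNMT1_OB was lower at 14.4. The log2 fold change was 0.06 (−0.13 to 0.25) in siDNMT1 against control and −0.32 (−0.53 to −0.12) in siDNMT1_OB against OB. The difference between them was −0.38 (−0.65 to −0.11).

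Hoxa6 had 138, 157, 129 and 141 counts in the same order and was the steadiest of the 8 genes, its highest CPM being 1.20 times its lowest. All 4 intervals included 0. Hoxa7, a trunk gene, had 1048, 856, 967 and 1009 counts. The log2 fold change was −0.21 (−0.34 to −0.08) in siDNMT1 against control and −0.18 (−0.31 to −0.05) in siDNMT1_OB against OB, and these 2 values differed by 0.03 (−0.15 to 0.21).

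Of the posterior genes, Hoxa9, best known from blood progenitors and leukaemia, was low, with 49, 26, 42 and 47 counts in control, siDNMT1, OB and siDNMT1_OB. The siDNMT1 library was the lowest, with a counting interval of its CPM that overlapped those of the other 3. The log2 fold change was −0.79 (−1.58 to −0.12) in siDNMT1 against control and 0.75 (0.07 to 1.54) in siDNMT1_OB against siDNMT1, and both rest on the same 26 reads. In siDNMT1_OB against OB it was −0.08 (−0.71 to 0.56). The difference between the values of siDNMT1_OB against OB and of siDNMT1 against control, 0.71 (−0.20 to 1.62), included 0.

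Hoxa10, which acts in the uterus, the thigh and osteoblast precursors, had log2 fold changes of 0.06 (−0.19 to 0.30) in siDNMT1 against control and −0.05 (−0.28 to 0.18) in siDNMT1_OB against OB. Both induced libraries were above both untreated ones, at 13.1 and 12.7 CPM against 10.1 and 10.5. The log2 fold change was 0.38 (0.14 to 0.62) in OB against control and 0.27 (0.04 to 0.51) in siDNMT1_OB against siDNMT1. The comparisons that share a library, such as OB against control and siDNMT1 against control, are not independent of each other.

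By direction, the siDNMT1 library was above control in 6 of the 8 genes, all but Hoxa7 and Hoxa9. In siDNMT1_OB against OB the count was 2 of 8, these being Hoxa3 and Hoxa4. It was 8 of 8 in OB against control, but 5 of 8 with TMM factors over all genes, and 4 of 8 in siDNMT1_OB against siDNMT1. Over all genes tested, 49.7%, 52.2%, 50.7% and 50.1% were above 0 in these comparisons. The interval of the difference between the values of siDNMT1_OB against OB and of siDNMT1 against control excluded 0 for Hoxa2, Hoxa4 and Hoxa5, or 3 of 8 genes, against 50.3% of all genes tested, so this count is not a result about the HoxA genes.

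Noncoding transcripts were also detected between Hoxa2 and Hoxa10, and of those with a mean of at least 1 CPM the widest range over the libraries was that of Hoxaas2, which runs antisense between Hoxa2 and Hoxa3. It had 423 reads in control, 428 with siDNMT1, 695 with OB and 488 with siDNMT1_OB, with OB standing apart from the other 3. Its log2 fold change was 0.98 (0.80 to 1.16) in OB against control, just short of the size threshold, but 1.01 with scaling to total counts and 1.02 with the upper quartile, both past it, and −0.75 (−0.92 to −0.58) in siDNMT1_OB against OB. Hoxa2, its neighbour, was also highest in OB, whereas Hoxa3, with which it overlaps, was at 18.2 CPM there, between the values of control and siDNMT1.

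Hoxaas3, antisense to Hoxa3 through Hoxa7, had 60, 88, 86 and 90 counts in control, siDNMT1, OB and siDNMT1_OB. Its log2 fold change was 0.62 (0.15 to 1.13) in siDNMT1 against control and 0.76 (0.29 to 1.28) in OB against control. Both rest on the 60 reads of control. The value was −0.17 (−0.62 to 0.27) in siDNMT1_OB against OB and −0.03 (−0.47 to 0.41) in siDNMT1_OB against siDNMT1. Of the 5 noncoding or unnamed rows above the floor in this stretch, 4 reached a mean of 1 CPM, and none of these was past the fold in any comparison, apart from Hoxaas2 under those 2 scalings. With 4 rows this is near the background, the highest share of all genes tested being 17.7% in OB against control. Hotair of the HoxC cluster, Hottip, Haglr and Hoxb3os had no count, and Halr1 had 3 counts in OB only.

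The TALE cofactors of Hox proteins were present, 10 of the 10 described with a mean of at least 1 CPM. Meis2 had the highest counts of the 10, with 4965, 5373, 4699 and 4836 in control, siDNMT1, OB and siDNMT1_OB (43.6 TPM in control). Its log2 fold changes lay between −0.21 and 0.20 in the 4 comparisons.

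In either direction, 3.2% of all genes tested were past the fold in siDNMT1 against control, 3.71% in siDNMT1_OB against OB, 17.7% in OB against control and 9.53% in siDNMT1_OB against siDNMT1. Of the 10 TALE genes, 2 were past it in OB against control and none in the other 3 comparisons, counts near these shares. With a prior count of 0.5 in place of 2, Pknox2 was also past it in siDNMT1 against control (1.00) and Tgif2 in OB against control (−1.02). With TMM factors over all genes, Tgif2 was past it in OB against control (−1.03) and Tgif1 in siDNMT1_OB against siDNMT1 (−1.003). Meis3, a hindbrain cofactor, had 208, 288, 503 and 581 counts and a log2 fold change of 1.53 (1.30 to 1.78) in OB against control. Pknox2, related to the Meis genes, had 14, 27, 38 and 44 counts and a log2 fold change of 1.56 (0.79 to 2.70). The others were Meis1 (1189, 1103, 961 and 958 counts), Pbx2 (1102, 983, 1245 and 1195), Pbx3 (467, 323, 336 and 381) and Pbx4 (35, 31, 28 and 50). Pknox1 had 1005, 906, 610 and 762, and the repressors Tgif1 and Tgif2 had 1632, 2082, 832 and 1107, and 71, 46, 29 and 39. The lowest counts of these 3 were in OB.

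Among the 33 Polycomb genes listed, all of them measured, none was past the fold in siDNMT1 against control (3.2% of all genes tested) or in siDNMT1_OB against OB (3.71%). In OB against control it was 3 of 33, beside 17.7% of all genes tested, with Ezh1 higher and Ezh2 and Phf19 lower. With TMM factors over all genes Suz12, a core subunit of the same complex as Ezh2, was also lower there (−1.03). Ezh1 and Ezh2 are the alternative enzymes that methylate lysine 27 of histone H3. Ezh1 had 1058, 952, 3004 and 2165 counts in control, siDNMT1, OB and siDNMT1_OB, a log2 fold change of 1.77 (1.67 to 1.87) in OB against control. Ezh2 had 2134, 1808, 751 and 1052, a change of −1.24 (−1.37 to −1.12). Phf19, which brings this complex to chromatin, had 407, 239, 103 and 215, a change of −1.70 (−2.05 to −1.40). Ezh1 also rose in siDNMT1_OB against siDNMT1, by 1.12 (1.01 to 1.23). It was the only 1 of the 33 past the fold there, beside 9.53% of all genes tested. The median of the 33 was −0.33 in OB against control.

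The listed cell cycle genes fell in OB against control, 12 of 12 past the fold, beside 7.1% of all genes tested that were lower there. Their part in the Polycomb values was not tested. The HoxA genes stayed within a log2 fold change of 0.41 in size in that comparison. None of the 14 Trithorax and lysine 27 demethylase genes, which oppose Polycomb, was past the fold in any comparison, beside 3.2% to 17.7% of all genes tested. With 14 genes these counts of 0 are not read as a result about the list.

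**Figure D5:**
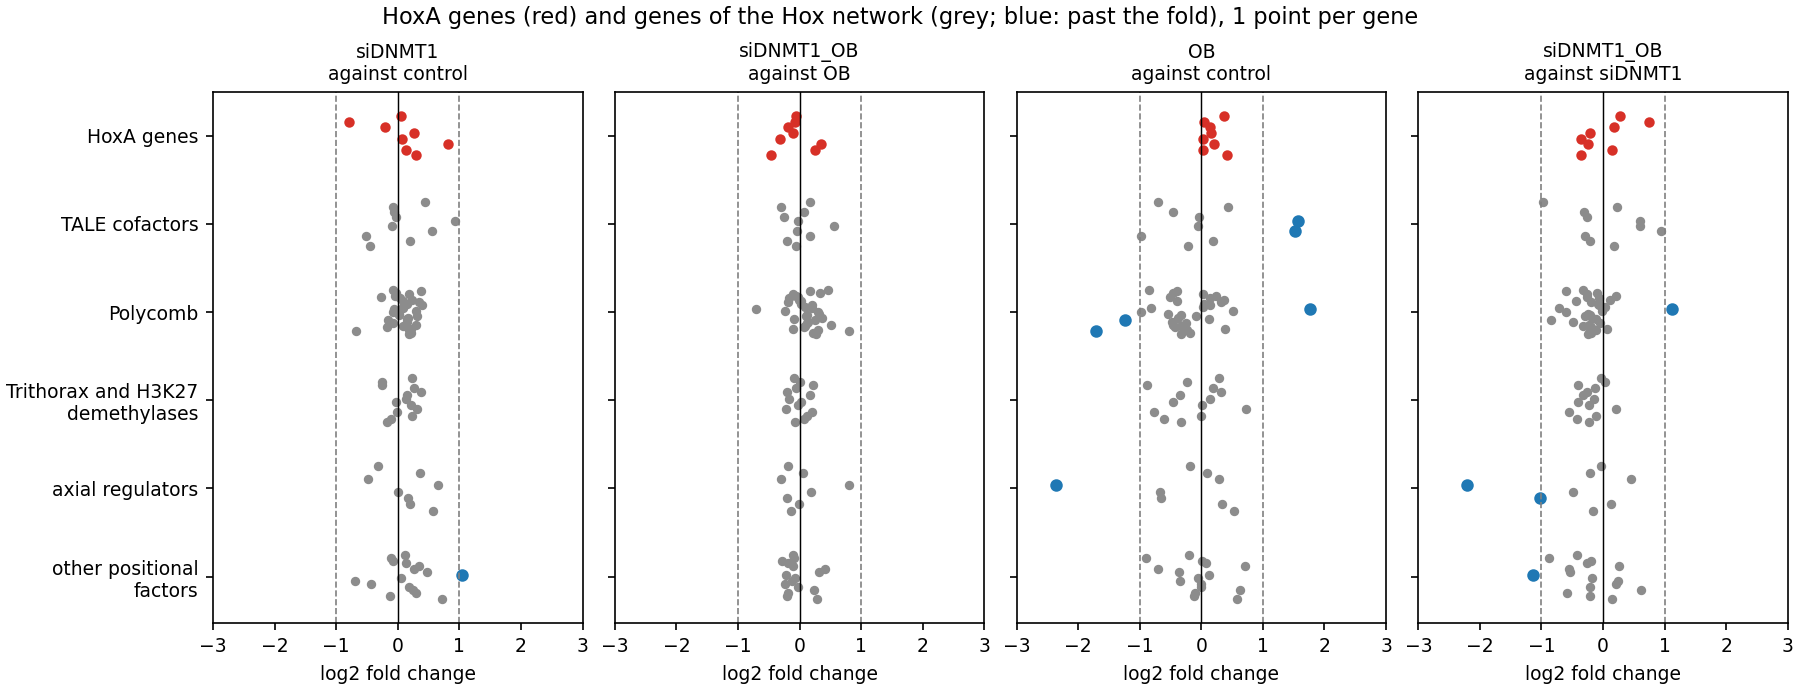
Log2 fold change (horizontal axis) of the 8 HoxA genes (red) and of the tested genes of 5 lists (grey, or blue when past the fold) in the 4 comparisons, 1 point per gene, with dashed lines at 1 in size. The HoxA points stay inside the dashed lines in each panel, and most of the blue points are in OB against control, among them Meis3, Pknox2, Ezh1, Ezh2 and Phf19.

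Of 17 upstream regulators of Hox genes, 8 reached a mean of 1 CPM. Of the Cdx genes, which open the trunk Hox genes in the embryo, Cdx2 and Cdx4 had no count and Cdx1 had 3 in control and 2 in siDNMT1_OB. Egr2, an activator of Hoxa2 in the hindbrain, had 328, 489, 52 and 109 counts in control, siDNMT1, OB and siDNMT1_OB, and fell by 2.36 on the log2 scale in OB against control and by 2.21 in siDNMT1_OB against siDNMT1. Cyp26b1, an enzyme that breaks down retinoic acid, had 691, 736, 364 and 375 counts and fell by 1.03 in siDNMT1_OB against siDNMT1. Of the 8, 1 was thus past the fold in OB against control (17.7% of all genes tested), 2 in siDNMT1_OB against siDNMT1 (9.53%), and none in siDNMT1 against control (3.2%) or siDNMT1_OB against OB (3.71%).

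Position is also recorded by other factors, and 16 of 35 described reached a mean of 1 CPM. Prrx1, the general limb and head mesenchyme factor, had 40016, 34629, 30610 and 31306 counts in control, siDNMT1, OB and siDNMT1_OB. Tbx5, the forelimb factor, Tbx4, the hindlimb factor, and Hand2, a posterior limb factor, had no count, and Pitx1, also of the hindlimb, had 2 counts in OB only. Tbx15 (662, 706, 547 and 634 counts) and Emx2 (242, 249, 176 and 194), both of the shoulder girdle, were present in all 4 libraries. So were Tbx1 (1222, 1093, 1026 and 991), Six2 (1281, 1121, 571 and 633), Dlx5 (481, 635, 312 and 458) and Pax9 (178, 215, 243 and 268). Pax1 and Alx1 had no count. The factors named here are examples and do not assign the cells to a region.

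Of these 16, only Dlx6, a jaw factor, was past the fold in any comparison, or 1 of 16 in siDNMT1 against control (3.2% of all genes tested), 1 in siDNMT1_OB against siDNMT1 (9.53%) and none in OB against control (17.7%) or siDNMT1_OB against OB (3.71%). It had 24, 49, 22 and 22 counts. The log2 fold changes were 1.05 (0.38 to 1.88) in siDNMT1 against control and −1.14 (−2.01 to −0.46) in siDNMT1_OB against siDNMT1. Both rest on the siDNMT1 library. Its CPM was 0.885, 1.91, 0.973 and 0.822 in control, siDNMT1, OB and siDNMT1_OB. Dlx6 thus reached the mean of 1 CPM only through the library in which it was high, and neither call is read as a result. With a mean of at least 5 CPM both calls were lost. Among 18 coding genes listed as flanking the 4 clusters, 12 reached a mean of 1 CPM, and the only one past the fold was Calcoco1, beside HoxC, at 1.32 (1.22 to 1.42) in OB against control, where 17.7% of all genes tested were past it. With upper quartile scaling Snx10, beside HoxA, was also past it there (1.01). Calcoco1 had 1207, 1526, 2508 and 2380 counts in control, siDNMT1, OB and siDNMT1_OB, while the HoxC genes beside it held at most 4.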

How the data were processed

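Poly(A) RNA of 4 C3H10T1/2 libraries, 1 per group, was measured by paired-end RNA-seq. The authors deposited raw counts per gene with a gene length in bases. Per the submitters' processing notes, reads were trimmed with Trimmomatic, aligned with HISAT2 to mm10 and counted with featureCounts. Versions, strand use and the treatment of multiply mapped reads are not given in the sources used here. The TruSeq kit did not mark strand, so a gene and its antisense partner cannot be told apart where exons overlap, and reads in shared exons may be dropped or assigned to either gene. Of 39 Hox rows, 37 had the position of GENCODE M21 (GRCm38). The exceptions were both rows of Hoxd4.

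From the deposited counts, TMM factors (edgeR 4.0.16, R 4.3.3) were computed over genes averaging at least 1 CPM and lay between 0.991 and 1.01. Those 13233 genes were the ones tested. Log2 fold changes used CPM with a prior count of 2, and the 95% interval of a ratio of 2 counts is exact (Clopper-Pearson). TPM was computed from counts and the deposited length. The interval of a difference between 2 fold changes is a normal (Wald) one from the counts. Intervals and the floor of 3 counts cover counting error only, since reads carried no molecular identifiers.

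The Hox genes and the lists were chosen with earlier results of these data known. Some genes of the set and of the lists are not reported here. In other lists, each tested gene past the fold is named, except the cell cycle genes, and genes named beyond that (absent, abundant or noncoding ones) were chosen after their values were seen. Other scaling (DESeq2 1.42.0 size factors, totals, upper quartile), filters, prior counts and thresholds were tried. Homeodomain proteins are not analysed here.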

Additional observations from a re-analysis of the deposited data

How the results depend on the processing

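No Hox gene was past the fold, a log2 fold change of at least 1 in size with an interval that excluded 0, in any comparison under the alternatives that kept this threshold. With a threshold of 0.58, 1 of 8 Hox genes was higher (Hoxa4) and 1 lower (Hoxa9) in siDNMT1 against control (5.75% and 4.08% of all genes tested), and 1 was higher (Hoxa9) in siDNMT1_OB against siDNMT1 (13.8%), too few to be read as a result about these genes. Without Hoxa7, its most abundant member, the HoxA sum gave 0.20 in siDNMT1 against control and −0.12 in siDNMT1_OB against siDNMT1. Without dividing by length, the highest HoxA gene was paralog 7 in siDNMT1 and OB in place of paralog 2. The 96 genes tested of all the lists other than cell type and cell cycle markers are called network genes. Of these, 1 was higher in siDNMT1 against control (Dlx6, beside 1.87% of all genes tested). The count became 2 with a prior count of 0.5 and 0 with a mean of at least 5 CPM. That filter also removed Dlx6 from the 3 network genes lower in siDNMT1_OB against siDNMT1 (2.71% of all genes tested). If the whole interval must lie past the fold, Dlx6 falls short in both comparisons. Pknox2 (0.79 to 2.70) in OB against control and Cyp26b1 (−1.22 to −0.85) in siDNMT1_OB against siDNMT1 then fall short too. With no filter on low counts, 1 network gene was lower in siDNMT1 against control in place of 0, beside 1.33% of all genes tested. In siDNMT1_OB against siDNMT1, 2 were higher in place of 1, beside 6.82%. These shares are those of the 13233 genes tested with the filter. The count of higher network genes in OB against control was 4, beside 10.6% of all genes tested. It became 6 with no filter (Nkx3-2 and Tbx2 gained) and with the upper quartile (Hoxaas2 and Snx10 gained). With total counts it was 5, and with a mean of at least 5 CPM it was 3 (Pknox2 left out). TMM over all genes, chosen after seeing the data, gave 5 network genes lower in OB against control in place of 3 (7.1% of all genes tested), the gained ones being Suz12 and Tgif2, and turned Hoxa3, Hoxa5 and Hoxa9 to −0.01, −0.01 and −0.004 there, so 5 of the 8 HoxA genes were then above 0 in place of 8. The cause was not tested. Scaling to total counts or the upper quartile took Hoxaas2 past the fold in OB against control, at 1.01 and 1.02. The largest move of a single Hox log2 fold change by scaling was 0.05. The 30 Hox genes under 1 CPM are limited by depth. No paired analysis was possible because each group had 1 library, and leaving out a library was not possible for the same reason.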
